A study of Mus musculus with 6 samples.

Results

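Laminins are the cross-shaped glycoproteins that build basement membranes, and 9 of their genes were followed in the mouse habenula, a small epithalamic region that links the forebrain to midbrain monoamine neurons. The members were chosen by symbol from a table of 55359 genes and comprised the alpha chain genes Lama1, Lama2, Lama3, Lama4 and Lama5, the beta chain genes Lamb1 and Lamb2, and the gamma chain genes Lamc1 and Lamc3. Lama5 was picked because its level was lower in the conditional knockout columns, so its difference between groups is given as a description and was not tested. The other 8 genes were taken as members of the same family.

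RNA was extracted from the habenula of C57BL/6 mice aged 2 months and sequenced in 6 libraries. The labels give 3 libraries as wild type (WT) and 3 as Tet2 conditional knockout (Tet2 cKO). Tet2 encodes a dioxygenase that oxidises 5-methylcytosine, which in mammals lies mostly in CpG dinucleotides. The sources used here name neither the Cre driver, which sets the cells that lose Tet2, nor the deleted exons. Nor do they say if the libraries are separate animals, so p-values measure the spread between libraries, which may be technical.

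A laminin molecule joins an alpha, a beta and a gamma chain in a coiled coil. The short arms of the chains polymerise into a sheet, and the globular end of the alpha chain binds integrins and glycosylated dystroglycan on the cell surface. In the brain, basement membranes lie around blood vessels, beneath the pia and under the choroid plexus epithelium. Endothelial cells make mainly the alpha 4 and alpha 5 chains, astrocytes and perivascular cells the alpha 2 chain, and leptomeningeal cells the alpha 1 chain. Alpha 3 is best known from epithelia such as skin.

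Library totals lay between 16089676 and 17917987 counts, so depth was nearly equal. The Tet2 count covers the whole gene and was not lower under the Tet2 cKO label. Its 3 WT libraries gave 3.45, 3.46 and 3.71 FPKM, and those labelled Tet2 cKO 4.47, 4.02 and 3.96 FPKM. FPKM is the count per kilobase of exon, scaled to the library total. The labels are therefore used as given, without a shown loss of Tet2 in these libraries. Habenular neuron markers were present, led by Slc17a6 (vesicular glutamate transporter) and Gpr151 (orphan receptor), with means of 123 and 59.6 FPKM in WT. Their summed level was 230 FPKM in WT replicate 3 and between 270 and 342 FPKM in the other 5 libraries.

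Promoter sequences of Lama2, Lama5, Lamb1 and Lamb2 were found among RefSeq promoters (GRCm38.p6), and are shown because Tet2 acts on CpG sites and the windows differ widely in CpG number. Each runs from 250 bases before to 50 bases after a RefSeq transcription start, on the strand of the gene, with every CpG in capitals. DNA methylation was not measured in these libraries.

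Lama5, chr2:180225810-180226109, minus strand: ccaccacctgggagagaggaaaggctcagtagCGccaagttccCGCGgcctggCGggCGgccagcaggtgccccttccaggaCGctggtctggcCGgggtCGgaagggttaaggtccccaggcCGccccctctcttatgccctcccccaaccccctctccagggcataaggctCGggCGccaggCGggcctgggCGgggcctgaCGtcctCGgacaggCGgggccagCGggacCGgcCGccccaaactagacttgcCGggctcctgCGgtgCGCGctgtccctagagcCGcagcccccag

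Lamb1, chr12:31265043-31265342, plus strand: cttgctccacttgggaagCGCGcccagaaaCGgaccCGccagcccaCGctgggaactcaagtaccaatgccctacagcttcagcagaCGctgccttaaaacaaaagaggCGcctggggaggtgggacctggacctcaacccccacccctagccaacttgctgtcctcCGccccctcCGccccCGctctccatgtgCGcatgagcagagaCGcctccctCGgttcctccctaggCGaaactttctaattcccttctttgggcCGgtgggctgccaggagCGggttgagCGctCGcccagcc

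Lamb2, chr9:108479612-108479911, plus strand: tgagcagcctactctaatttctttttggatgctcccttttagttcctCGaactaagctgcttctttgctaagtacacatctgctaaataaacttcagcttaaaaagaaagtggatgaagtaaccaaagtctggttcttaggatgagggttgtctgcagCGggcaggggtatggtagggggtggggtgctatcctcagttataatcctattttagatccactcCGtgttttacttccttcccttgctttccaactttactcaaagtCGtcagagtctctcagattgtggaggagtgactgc

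Lama2, chr10:27616893-27617192, minus strand: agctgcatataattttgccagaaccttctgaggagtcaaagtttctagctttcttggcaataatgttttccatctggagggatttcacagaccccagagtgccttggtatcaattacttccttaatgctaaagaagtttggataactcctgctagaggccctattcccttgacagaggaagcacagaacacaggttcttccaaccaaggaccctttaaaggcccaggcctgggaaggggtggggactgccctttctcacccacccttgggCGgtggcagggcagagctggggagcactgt

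The Lama5 window held 24 CpG sites, and 20.0% of 32817 mouse promoters of the same length held as many or more. Lamb1 held 18 CpG sites, a number reached by 29.7% of promoters. Lamb2 held 4 and Lama2 held 1, against a median of 7 over all promoters. The GC box GGGCGG, searched on both strands, occurred 4 times in Lama5, 2 times in Lamb1, 1 time in Lama2 and 0 times in Lamb2, and 35.6% of all promoters held it. Each GC box contains a CpG, so these counts are not independent. The start used for Lama5 is also the outermost GENCODE start, while the Lama2 window uses a start 2816 bases away from the outermost GENCODE start. No count of the table is specific to any 1 start site.

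The 9 genes are spread over 7 chromosomes in GENCODE M21 (GRCm38). Lama5 (ENSMUSG00000015647) spans 180176373 to 180225859 on the minus strand of chromosome 2, with 79 merged exon blocks in 49487 bases. Lamc3 (ENSMUSG00000026840) lies on the plus strand of the same chromosome, 31887291 to 31946539. Lamb2 (ENSMUSG00000052911) spans 108479736 to 108490530 on the plus strand of chromosome 9, and Lamb1 (ENSMUSG00000002900) 31265234 to 31329644 on the plus strand of chromosome 12. Lama2 (ENSMUSG00000019899) and Lama4 (ENSMUSG00000019846) share chromosome 10, Lama1 (ENSMUSG00000032796) is on chromosome 17 and Lama3 (ENSMUSG00000024421) on chromosome 18. Lamc1 (ENSMUSG00000026478) spans 153218922 to 153332786 on the minus strand of chromosome 1. Lama2 is the longest gene, at 639723 bases, and Lamb2 the shortest, at 10795 bases. Exons of Lama2, Lama3 and Lamc3 overlap an antisense gene each, and these antisense genes had at most 3 counts in any library. No exon of Lama1, Lama4, Lama5, Lamb1, Lamb2 or Lamc1 overlapped another gene.

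**Figure D1:**
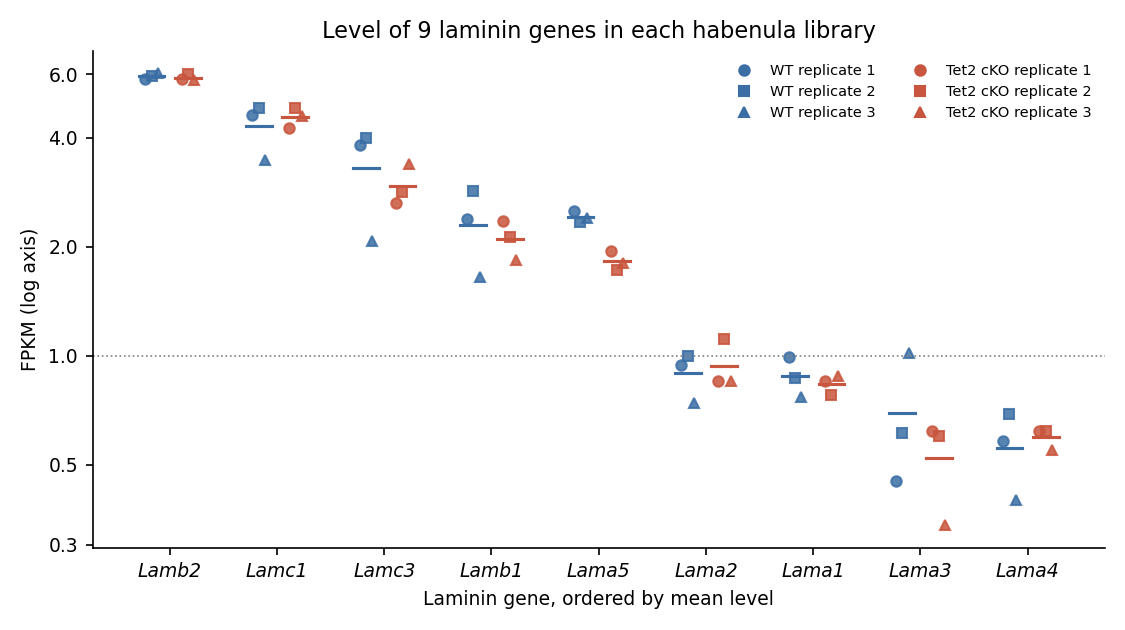
FPKM on a log axis for 9 laminin genes in each of 6 libraries, ordered by mean level; blue symbols are WT and red symbols Tet2 cKO, the symbol shape gives the replicate, short lines are group means and the dotted line marks 1 FPKM. Lama5 is between 2.34 and 2.51 FPKM in WT and between 1.73 and 1.95 FPKM in Tet2 cKO, while the 2 groups of each other gene overlap.

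Lamb2, the beta chain of synaptic, vascular and glomerular basement membranes, had the highest level, at 5.90 ± 0.107 FPKM (SD over 6 libraries), and ranked first in each library. Lamc1, the gamma chain of most laminin molecules, followed at 4.44 ± 0.521 FPKM and its range did not meet that of Lamb2. Lamc3, a gamma chain whose human mutation disturbs cortical folding, stood at 3.13 ± 0.737 FPKM. Lamb1, the partner of Lamc1 in many embryonic and vascular laminins, stood at 2.20 ± 0.432 FPKM, and Lama5 at 2.12 ± 0.335 FPKM. From Lamc1 down to Lama5, the ranges of neighbours over the 6 libraries overlapped. Set side by side within each library, Lamc1 was above Lamc3 in 6 of 6, by 0.79 to 2.0 FPKM, and Lamc3 was above Lamb1 in 6 of 6, by 0.29 to 1.54 FPKM. Lamb1 was above Lama5 in 4 of 6, with a mean difference of 0.0817 ± 0.475 FPKM (SD), so these neighbours did not differ beyond their spread.

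A gap separated Lama5 from the other 4 alpha chains. Lama2 stood at 0.915 ± 0.130 FPKM, Lama1 at 0.857 ± 0.0799, Lama3 at 0.607 ± 0.231 and Lama4 at 0.577 ± 0.0985 FPKM (SD over 6 libraries each). Neighbours within these 4 overlapped. All 4 had a mean below 1 FPKM, the minimum for the main test, and 5 of 9 members passed that minimum. Their exons are long, so they still had 65 to 331 counts in a library.

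Lama5 encodes alpha 5, the alpha chain of vascular and many epithelial basement membranes. It gave 2.51, 2.34 and 2.40 FPKM in the WT libraries, against 1.95, 1.73 and 1.80 FPKM in those labelled Tet2 cKO, from 495, 429 and 484 counts and 387, 353 and 367 counts. All 3 Tet2 cKO libraries were below every WT library. The group means were 2.42 ± 0.0862 and 1.83 ± 0.112 FPKM (SD, n = 3 each), a ratio of 0.756. On the log2 scale the difference of Tet2 cKO minus WT was -0.41 in edgeR's fit, and -0.46 to -0.37 when each library was left out. Lower groups without overlap were found in 3.52% of the 14539 tested genes. Because Lama5 was selected for this difference, nothing is read from that share.

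The other alpha chains are given from an edgeR fit with no minimum level. In that fit, 49 of 31689 genes passed at a Benjamini-Hochberg adjusted p under 0.05, or 0.155%. None of Lama1, Lama2, Lama3 and Lama4 passed, in that fit or with edgeR's filterByExpr, DESeq2 or limma.

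Lama3, the alpha chain of epithelial anchoring laminin, gave 0.45, 0.61 and 1.02 FPKM in the WT libraries, against 0.62, 0.60 and 0.34 FPKM in those labelled Tet2 cKO. WT replicate 3 was the highest library and Tet2 cKO replicate 3 the lowest, and the groups overlapped. The log2 difference was -0.42 (95% interval -0.82 to -0.014), with an unadjusted p = 0.0428 and an edgeR adjusted p = 0.970. Unadjusted p under 0.05 was reached by 3.5% of the genes in that fit, and with filterByExpr the unadjusted p for Lama3 in edgeR was 0.207. The difference shrank to -0.016 when WT replicate 3 was left out, and to -0.18 when Tet2 cKO replicate 3 was. It grew to -0.65 without WT replicate 1 (unadjusted p = 0.00174, edgeR adjusted p = 0.357), and was -0.56 to -0.51 without each of the other 3 libraries.

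Lama4, the endothelial chain alpha 4, gave 0.58, 0.69 and 0.40 FPKM in the WT libraries, against 0.62, 0.62 and 0.55 FPKM in those labelled Tet2 cKO. Its log2 difference was 0.09 (95% interval -0.28 to 0.46), and -0.099 without WT replicate 3, the lowest library. Lama2, whose loss causes a congenital muscular dystrophy, gave 0.94, 1.0 and 0.74 FPKM in the WT libraries, against 0.85, 1.11 and 0.85 FPKM in those labelled Tet2 cKO. Its log2 difference was 0.07 (95% interval -0.20 to 0.34), and it turned to -0.045 without WT replicate 3 and to -0.080 without Tet2 cKO replicate 2. Lama1, the leptomeningeal and embryonic alpha chain, gave 0.99, 0.87 and 0.77 FPKM in the WT libraries, against 0.85, 0.78 and 0.88 FPKM in those labelled Tet2 cKO. Its log2 difference was -0.06 (95% interval -0.40 to 0.27), and 0.035 without WT replicate 1. In each of these 3 genes the groups overlapped.

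**Figure D2:**
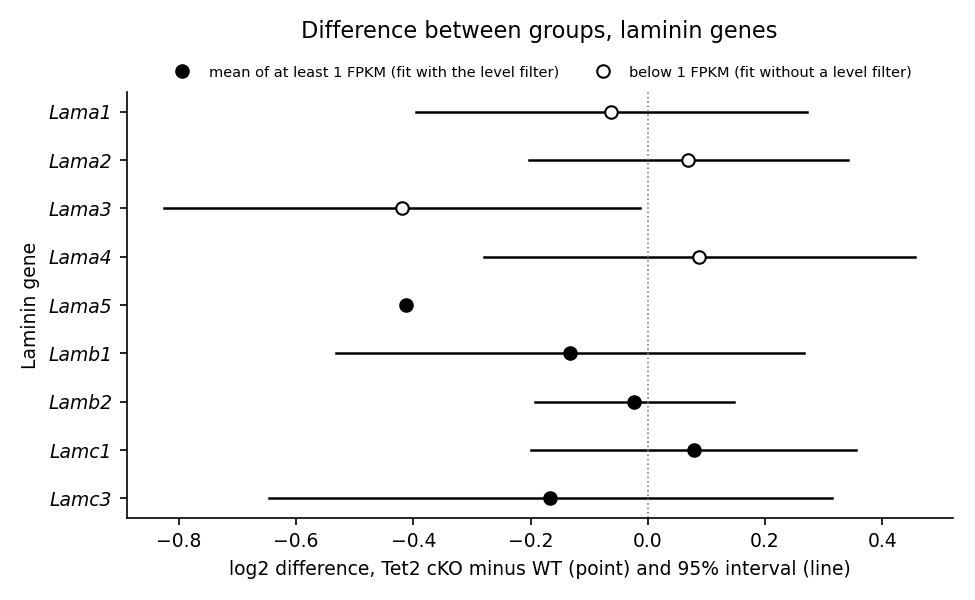
Log2 difference of Tet2 cKO minus WT for each laminin gene, with its 95% interval except for Lama5; filled points come from the fit of genes averaging 1 FPKM or more, open points from the fit with no minimum level. Lama5, which was picked for its lower level, is shown as a point at -0.41, and of the 8 intervals drawn only that of Lama3 leaves out 0.

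In the main test, edgeR's quasi-likelihood test on genes averaging 1 FPKM or more, 0 of 14539 genes passed at a Benjamini-Hochberg adjusted p under 0.05, or 0.0%. Unadjusted p fell under 0.05 for 374 genes, and DESeq2 called 4 genes. Lamb1, Lamb2, Lamc1 and Lamc3, the tested chains other than Lama5, each had an edgeR adjusted p = 0.9999 and groups that overlapped.

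Lamb2 varied least, its highest library being 1.04 times its lowest after scaling to the library total. It gave 5.82, 5.93 and 6.03 FPKM in the WT libraries, against 5.82, 6.00 and 5.77 FPKM in those labelled Tet2 cKO. Its log2 difference was -0.02 (95% interval -0.19 to 0.15). That interval is narrower than those of the other 7 genes not chosen by their difference.

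Lamb1 gave 2.39, 2.86 and 1.65 FPKM in the WT libraries, against 2.35, 2.13 and 1.84 FPKM in those labelled Tet2 cKO. WT replicate 3 was lowest and WT replicate 2 highest, so the spread within WT exceeded the difference between groups. The log2 difference was -0.13 (95% interval -0.53 to 0.27). It was -0.31 without WT replicate 3 (unadjusted p = 0.0228, edgeR adjusted p = 0.808) and 0.046 without WT replicate 2.

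Lamc1 gave 4.62, 4.85 and 3.47 FPKM in the WT libraries, against 4.27, 4.84 and 4.61 FPKM in those labelled Tet2 cKO. Its log2 difference was 0.08 (95% interval -0.20 to 0.36), and -0.046 without WT replicate 3. Lamc3 gave 3.83, 3.99 and 2.08 FPKM in the WT libraries, against 2.64, 2.84 and 3.38 FPKM in those labelled Tet2 cKO. Here too WT replicate 3 was the lowest library, while the other 2 WT libraries were above all of Tet2 cKO. The log2 difference of Lamc3 was -0.17 (95% interval -0.65 to 0.31). It was -0.40 without WT replicate 3 (unadjusted p = 0.00486, edgeR adjusted p = 0.559), -0.013 without WT replicate 2 and -0.040 without WT replicate 1.

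Across the 9 genes, WT replicate 3 had an uneven pattern. It was the lowest library for 6 of them, Lama1, Lama2, Lama4, Lamb1, Lamc1 and Lamc3, at 0.624 (Lamc3) to 0.885 (Lama1) times the mean of the other 5 libraries. It was the highest library for 2, namely Lama3 at 1.95 and Lamb2 at 1.03 times that mean. For Lama5 it was neither, at 1.16 times the mean of the others. This library also had the highest share of mitochondrial counts, 7.66% against 5.43% to 6.44%, and the lowest level of habenular neuron markers. The part of either in the laminin values was not tested.

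Because FPKM is per length, the make-up of the alpha and beta chains could be set side by side. The length used is, exactly or nearly, that of the merged exons of all annotated transcripts, so the shares also depend on the annotation. Lama5 made 45.9%, 42.5% and 45.0% of the summed alpha chain FPKM in WT and 39.9%, 35.7% and 40.7% in Tet2 cKO. Every Tet2 cKO share was lower than every WT share, with means of 44.5% ± 1.78 and 38.8% ± 2.66 (SD, n = 3 each). The lower Lama5 level that chose the gene is part of these shares, so they were not tested. The summed alpha chain level was 5.47, 5.51 and 5.33 FPKM in WT and 4.89, 4.84 and 4.42 FPKM in Tet2 cKO. The ratio of Lama5 to Lama4, the other endothelial alpha chain, was 4.33, 3.39 and 6.00 in WT and 3.15, 2.79 and 3.27 in Tet2 cKO. Both the sum and the ratio hold the Lama5 values that chose the gene, so neither shows a difference of the alpha chains as a class. Groups overlapped for each of Lama1, Lama2, Lama3 and Lama4.

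Lamb2 made 64.6% to 73.1% of the beta chain level, Lamb1 20.0% to 31.2% and Lamb3, a beta chain gene outside the 9, 4.09% to 6.91%. The summed beta chain level was 8.16 to 9.18 FPKM. Of the gamma chains, the ratio of Lamc3 to Lamc1 was 0.829, 0.823 and 0.599 in WT and 0.618, 0.587 and 0.733 in Tet2 cKO, and the groups overlapped.

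**Figure D3:**
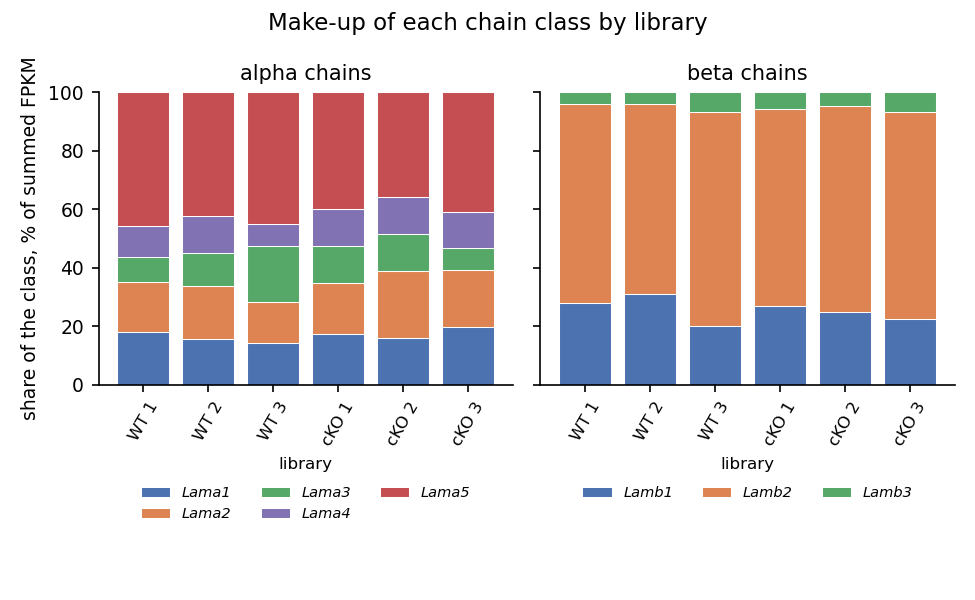
Share of each gene in the summed FPKM of the alpha or beta chains, in percent, by library (cKO stands for Tet2 cKO); each bar sums to 100%. Lama5 makes the largest part of the alpha chains in every library, from 35.7% to 45.9%, and Lama3 takes more in WT replicate 3 than in the other libraries.

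Marker lists of the cell types that border the habenula or make basement membranes were set beside Lama5. Ependymal markers, like Lama5, had lower values in every Tet2 cKO library. Their summed level was 59.1, 62.3 and 73.8 FPKM in WT and 47.9, 53.8 and 44.2 FPKM in Tet2 cKO, without overlap. Within groups the sum was highest in WT replicate 3 and Tet2 cKO replicate 2, and Lama5 in WT replicate 1 and Tet2 cKO replicate 1. Lama5 values within a group are close, so nothing is read from the order of 3 libraries, which was not tested. All 8 tested of 9 ependymal markers had a negative log2 difference, with a median of -0.43 against -0.0021 for all tested genes, and none passed in the main test. A negative value was found in 50.9% of all tested genes. In edgeR's main test 5 of the 8 had an unadjusted p under 0.05, against 2.57% of all tested genes. Groups were lower without overlap for 5 of the 8, against 3.52%. The list was chosen with earlier results of these data known, and its genes mark the same cell type. Nothing is therefore read from these shares. In the edgeR fit with no minimum level none of the 9 passed. There Hydin passed with the replicate number as a block, Hydin and Rsph1 without WT replicate 1, and Hydin and Rarres2 without WT replicate 3. How many of all genes passed in those fits is not given here. Ccdc153 and Dynlrb2, cilium genes with the highest level in that list, differed by -0.43 each on the log2 scale.

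Choroid plexus markers also had lower values, but with a wide spread within groups. Their sum, nearly all of it Ttr (transthyretin), was 1410, 844 and 452 FPKM in WT and 831, 174 and 288 FPKM in Tet2 cKO. All 12 had a negative log2 difference, with a median of -1.14, and none passed in the main test. In edgeR's main test 9 of the 12 had an unadjusted p under 0.05, against 2.57% of all tested genes. As for the ependymal list, nothing is read from that share. In the edgeR fit with no minimum level, 9 of the 12 passed as lower (Ttr, Folr1, Clic6, Kl, Kcnj13, Slc4a5, Aqp1, Cldn2 and Calml4), among the 49 genes called there. DESeq2 called Calml4 alone of them, and filterByExpr none. When each library was left out of the fit with no minimum level, 4 passed on leaving out WT replicate 1, 12 on leaving out WT replicate 3 and 0 for each of the other 4 libraries. The number of all genes passing in those fits is not given here, so nothing particular to this list is read from these counts. Of all 12, only Calml4 had groups that did not overlap, where 3.52% of tested genes were lower without overlap. Leaving out WT replicate 1 gave a median of -0.62, and leaving out Tet2 cKO replicate 1 gave -1.75.

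Brain endothelial markers summed to 96.2, 93.7 and 112 FPKM in WT and 101, 82.4 and 87.4 FPKM in Tet2 cKO, and their groups overlapped. Of 12 tested, 11 had a negative log2 difference, with a median of -0.049, and none passed in the main test. With Tet2 cKO replicate 1 left out this median was -0.14, and it was -0.11 and -0.10 on leaving out WT replicate 3 or Tet2 cKO replicate 3. Ly6c1 and Cldn5 (the tight junction protein claudin 5) were the highest of them, at means of 28.4 and 20.1 FPKM in WT. The log2 differences ran from -0.53 (Cldn5) to 0.017 (Abcb1a), and Emcn, picked out for its difference, was at -0.40. All markers but Cldn5 and Emcn lay between -0.16 (Ly6c1) and 0.017. Groups of Cldn5 and Emcn overlapped. Cldn5 gave 16.86, 14.35 and 29.01 FPKM in WT and 17.73, 10.21 and 14.06 FPKM in Tet2 cKO. In the fit with no minimum level its edgeR adjusted p was 0.0911, and it passed there only without WT replicate 1. The number of all genes passing without that library is not given here. Mural cell markers, of pericytes and smooth muscle, summed to 105 to 112 FPKM in WT and 99.8 to 117 FPKM in Tet2 cKO, with a median log2 difference of 0.046. Leptomeningeal fibroblast markers, led by Dcn and Lum, summed to 11.1 to 17 FPKM in WT and 12 to 15.1 FPKM in Tet2 cKO. No marker of these 5 lists had 0 counts in any library. Astrocyte markers went mostly the other way. Of 10 tested, 7 had a positive log2 difference, with a median of 0.12, and none passed in the main test. Their groups were higher without overlap for 4, against 3.43% of all tested genes, and lower for 1, against 3.52%. As for the ependymal list, nothing is read from these shares. The part of these cell types in the Lama5 values was not tested, and in bulk tissue fewer cells of a type and less RNA per cell cannot be told apart.

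**Figure D4:**
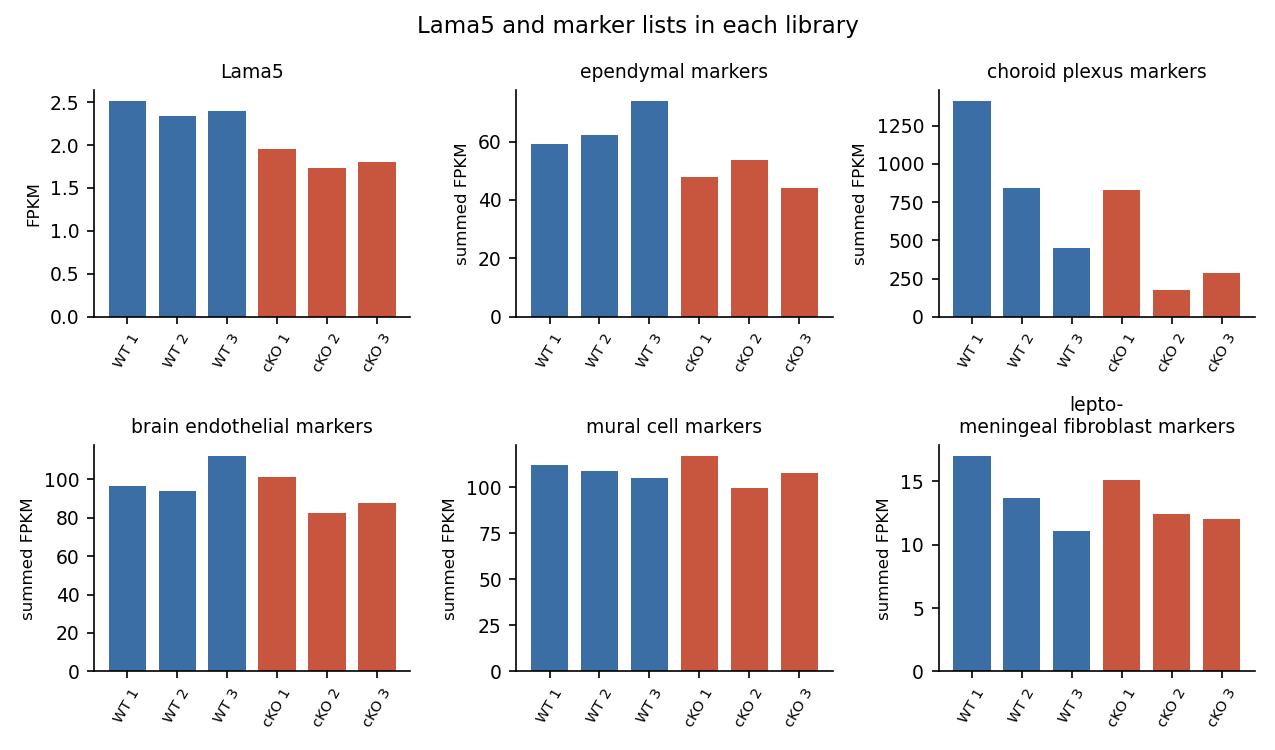
Lama5 in FPKM and the summed FPKM of 5 marker lists in each library, WT in blue and Tet2 cKO in red (cKO), with axes from 0. Lama5 and the ependymal sum are lower in all 3 Tet2 cKO libraries than in any WT library, while the endothelial, mural and leptomeningeal sums overlap between the groups.

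Other genes of the laminin pathway did not pass either, in the main test or in the fit with no minimum level. Over their tested genes, the list medians lay within the quartiles of all tested genes (-0.068 and 0.060). For comparison, 2.57% of tested genes had an unadjusted p under 0.05, and 6.95% had groups without overlap.

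Receptors that bind the alpha chain end showed small differences. All 7 genes (Itga3, Itga6, Itga7, Itgb1, Itgb4, Dag1 and Bcam) were tested, with a median log2 difference of 0.02, from -0.15 to 0.05, and all had overlapping groups. Itgb1, the beta subunit of most laminin-binding integrins, gave 21.0, 21.2 and 17.2 FPKM in the WT libraries, against 20.4, 21.3 and 19.3 FPKM in those labelled Tet2 cKO. Dag1, which encodes dystroglycan, gave 15.4, 14.7 and 11.2 FPKM in the WT libraries, against 13.3, 15.4 and 14.5 FPKM in those labelled Tet2 cKO. WT replicate 3 was again the lowest library for both. The smallest unadjusted p values belonged to Itga3 and Itgb4, at log2 differences of -0.15 (95% interval -0.38 to 0.082) and -0.12 (95% interval -0.36 to 0.12).

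Dystroglycan binds laminin through a sugar chain. Of 12 genes that build it, 11 were tested, with a median log2 difference of -0.03, and none passed. Pomgnt1 and Pomgnt2, transferases of its core, differed by -0.13 and -0.14 (SE 0.0808 and 0.105). The Pomgnt1 groups did not overlap, by a margin of 10.45 against 10.49 FPKM. Of 10 genes of the dystrophin complex inside the cell, 9 were tested, with a median of -0.01. Sntb1, a syntrophin, differed by -0.30 (SE 0.116) with an unadjusted p = 0.0287 and an edgeR adjusted p = 0.9999, and its groups overlapped. Dmd, which encodes dystrophin, differed by 0.09 (SE 0.0800).

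Of 14 other basement membrane genes, 8 were tested, with a median of -0.05, and none passed. In the fit with no minimum level, all 14 had a median of -0.15 and 11 had a negative difference, against 51.4% of all genes there, and none passed. The 6 genes below 1 FPKM were all negative, among them Nid2 (nidogen 2) at -0.74 (unadjusted p = 0.00192, edgeR adjusted p = 0.375). How many of all genes passed in that fit without WT replicate 3 is not given here. There Nid2 passed as lower, and Col15a1, which encodes collagen XV, as higher. Groups of both overlapped with all libraries, and the library left out went against the difference in each. Nid2 gave 1.80, 1.03 and 0.63 FPKM in WT and 0.82, 0.44 and 0.82 FPKM in Tet2 cKO. Col15a1 gave 3.98, 3.83 and 5.93 FPKM in WT and 5.77, 5.34 and 6.07 FPKM in Tet2 cKO. Col4a3 and Col4a4, which encode collagen IV chains, differed by -0.48 and -0.53 in the fit with no minimum level (edgeR adjusted p = 0.970 each). Both were lower without overlap, as were 3.95% of all genes in that fit. Col4a3 gave 0.32, 0.38 and 0.31 FPKM in the WT libraries, against 0.25, 0.22 and 0.25 FPKM in those labelled Tet2 cKO. Nid2, Col15a1, Col4a3 and Col4a4 were picked out once their values had been seen. The 8 tested genes held both directions. Col18a1, the heparan sulfate collagen whose fragment is endostatin, gave 5.28, 4.72 and 5.59 FPKM in the WT libraries, against 4.47, 3.27 and 4.13 FPKM in those labelled Tet2 cKO. All 3 Tet2 cKO libraries were lower than every WT library, as for Lama5. The log2 difference was -0.40 (95% interval -0.68 to -0.13), with an unadjusted p = 0.0077 and an edgeR adjusted p = 0.9999. Nid1, which encodes nidogen 1, the linker between the gamma 1 chain and collagen IV, gave 2.16, 2.16 and 1.76 FPKM in the WT libraries, against 2.52, 2.30 and 2.72 FPKM in those labelled Tet2 cKO. Here all 3 Tet2 cKO libraries were higher than every WT library, a pattern found in 3.43% of tested genes. Its log2 difference was 0.30 (95% interval 0.036 to 0.57), with an unadjusted p = 0.0298 and an edgeR adjusted p = 0.9999. The most abundant genes of the list, Sparc and Agrn (agrin), differed by -0.01 and 0.02. Netrins carry laminin-like domains. Of 6 genes 5 were tested, with a median of 0.02, and Ntn4, a netrin that binds the laminin gamma 1 chain, differed by -0.12 (SE 0.151).

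**Figure D5:**
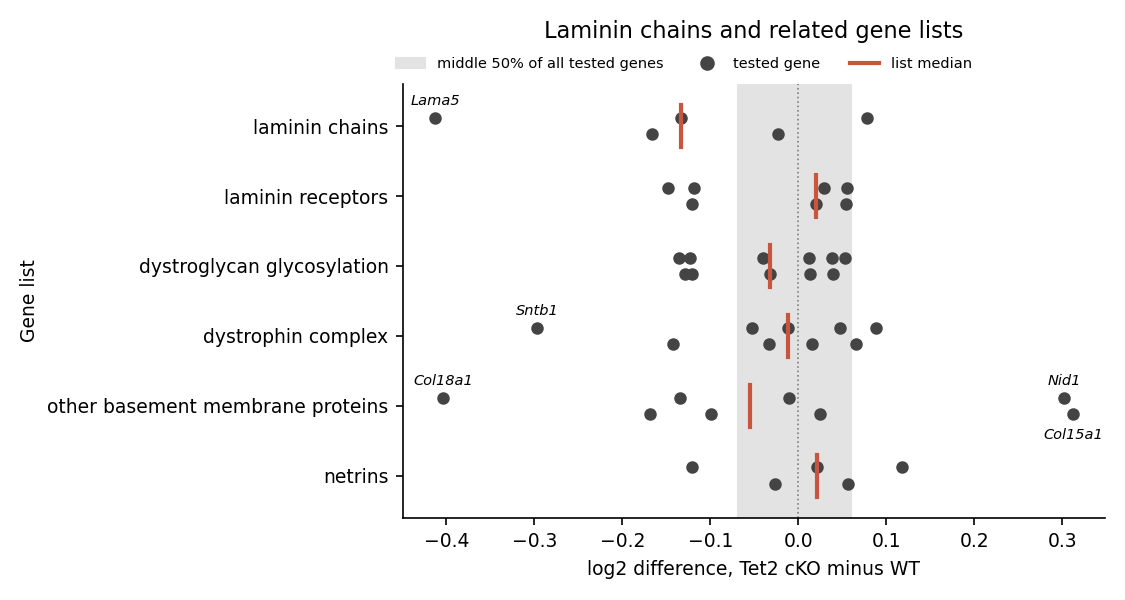
Log2 difference of Tet2 cKO minus WT for every tested gene of the laminin chains and 5 related lists; red lines are list medians and the grey band holds the middle 50% of all tested genes. Medians of the 5 related lists lie between -0.055 and 0.021, while Lama5 and Col18a1 lie near -0.41 and -0.40 and Nid1 at 0.30.

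The genes whose pattern over the 6 libraries was most like that of Lama5 were sought among 12282 named genes. Likeness was the mean absolute difference of log2 CPM (counts scaled to the library total), with each gene centred on its own mean. The 5 nearest genes were Det1 (0.0568), Myo7a (0.0585), Zfp108 (0.0603), Dtx2 (0.0663) and Rassf9 (0.0701), against a median distance of 0.215 over all genes compared. The nearest genes lie below that median by the way they are chosen. None of the 5 is a laminin gene or a member of the pathway lists, but those are few among the genes compared, so nothing is read from this. The log2 differences of the 5 nearest genes between groups ran from -0.43 (Rassf9) to -0.30 (Zfp108), which the likeness to Lama5 fixes. For Lamc1 the nearest were Scaf11 (0.0139), Zfp281 (0.0160) and Lrrc8b (0.0207), against a median of 0.157.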

How the data were processed

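Total RNA of 6 mouse habenula libraries was sequenced. The authors deposited whole-number read counts per gene and FPKM values, per the file headers. The deposited FPKM equalled count per kilobase of exon scaled to the library total, within 0.0051 for 100% of values. The tools named are HISAT2 2.0.1 for build mm10, SAMtools 0.1.19, cutadapt 1.9.1 and FastQC 0.10.1, per the submitters' processing notes. How reads were counted, and whether by strand, is not given in the sources used here. Antisense reads and isoforms therefore cannot be separated. Positions are those of GENCODE M21, joined by gene identifier, and the table's own coordinates were not used here.

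Counts were tested with edgeR 4.0.16 (quasi-likelihood, TMM, Tet2 cKO minus WT, two-sided, no covariate) in R 4.3.3 on 14539 genes averaging 1 FPKM or more, with Benjamini-Hochberg adjustment over all of them and a threshold of 0.05. The common biological coefficient of variation was 10.4%. Intervals are 95% intervals, and the SE is the log2 difference over the root of its F statistic. The method was tested on simulated data. Overlap of groups was judged on counts scaled to the library total. Alternatives were DESeq2 1.42.0, limma 3.58.1 on log2(FPKM + 1), RLE size factors, no minimum level, a replicate block, leaving out each library and, added after seeing the data, filterByExpr.

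The members and gene lists were chosen with earlier results of these data known. Named genes were all members, from each pathway list the 2 with the smallest p and the 2 with the highest FPKM, from each marker list the 2 with the highest FPKM, and the genes nearest to Lama5 and Lamc1. Not every gene that this rule allows is described, and some marker genes are named besides it for their difference or for passing under an alternative setting. 1 gene of the fixed lists is not reported here. Lists of astrocyte, oligodendrocyte and microglia markers were also fixed, with median log2 differences of 0.12, 0.098 and 0.033, and no member passed in the main test. Without a minimum level, Aqp4, an astrocyte water channel, passed as higher (log2 difference 0.57, edgeR adjusted p = 1.97e-05), but not with DESeq2 or filterByExpr.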

Additional observations from a re-analysis of the deposited data

How the results depend on the processing

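The number of genes called was 0 in edgeR's main test, on genes averaging 1 FPKM or more. On those genes it was 4 with DESeq2 and 0 to 3 when each library was left out. The latter were 1 without WT replicate 2 and 3 without WT replicate 3. With all libraries it was 49 with no minimum level and 2 with filterByExpr. With no minimum level, leaving out WT replicate 3 called 12 choroid plexus markers and other genes besides. The total of genes called with no minimum level and a library left out is not given here. Under none of these settings did any of the 8 laminin genes other than Lama5 pass. The log2 difference of Lama5 ranged from -0.46 without Tet2 cKO replicate 1 to -0.27 with limma on log2(FPKM + 1). The latter scale understates changes of low genes. Lama5 was picked for a lower level in these same libraries, so its sign under these settings is no support for a difference. Its share of the alpha chain level, which holds the same values, differed by -5.68 percentage points, and by -6.68 to -4.16 when each library was left out. Among the single genes, signs changed only when a library was left out. Their log2 differences then ranged over -0.14 to 0.035 for Lama1, -0.080 to 0.15 for Lama2 (-0.045 without WT replicate 3), -0.099 to 0.26 for Lama4, -0.31 to 0.046 for Lamb1, -0.041 to 0.00037 for Lamb2, -0.046 to 0.16 for Lamc1 and -0.0084 to 0.19 for Ntn3. The median of the other basement membrane genes was 0.066 without WT replicate 3. With the replicate number as a block (replicate block), 0 genes were called and Lama5 was at -0.41. The deviations of same-numbered libraries from their group means had correlations of -0.0413, 0.176 and -0.102, and 2 of 6 libraries correlated best with their own number, so the numbers were not treated as pairs. Ordered by count without division by length, Lamc1 came before Lamb2 and Lama5 came before Lamb1 and Lamc3. With 3 libraries a group, the 95% intervals of Lama3, Lamb1 and Lamc3 hold negative differences as large as that of Lama5. The interval of Lama4 holds a positive difference of that size.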
